A study of Mus musculus with 6 samples.

Results

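The 9 genes described here encode receptors for dopamine (Drd1, Drd2 and Drd5), receptors for noradrenaline and adrenaline (Adra1a, Adra1d, Adra2a and Adrb1) and the monoamine oxidases that break these transmitters down (Maoa and Maob). They were chosen by name, with earlier results of these data known. All 9 were found among the 32066 named rows of the deposited table and all 9 were among the 18629 genes with enough counts to test. Poly(A) RNA was sequenced from hippocampus of wild type female C57BL/6J mice, all ovariectomised and all aged 17 weeks at collection, in 2 groups of 3 libraries. The OVX+RJ group ate, from 8 weeks of age, a diet with 1% royal jelly, a secretion that worker honeybees feed to larvae and queens. The OVX group ate the control diet. Every mouse in the comparison lacks ovaries, the main source of circulating estrogen, and the sham-operated mice of the protocol are not analysed here. Each library is labelled a biological replicate. The labels give no hour or order of collection.

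Dopamine and noradrenaline reach the hippocampus through axons whose cell bodies lie in the midbrain and the brainstem, above all the locus coeruleus. Their receptors are G protein-coupled. D1-like receptors (Drd1, Drd5) and beta receptors (Adrb1) raise cyclic AMP through stimulatory G proteins, D2-like receptors (Drd2) and alpha-2 receptors (Adra2a) lower it, and alpha-1 receptors (Adra1a, Adra1d) act through Gq and phospholipase C. In the hippocampus these receptors are known for their part in synaptic plasticity and in the storage of memories. Monoamine oxidases sit on the outer mitochondrial membrane and oxidise dopamine, noradrenaline and serotonin.

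The libraries held between 36084584.5 and 39368202 counts in OVX+RJ and between 34718592.5 and 58163779 in OVX. The share of counts from mitochondrial genes was 6.48% to 6.87% in OVX+RJ and 6.46% to 6.91% in OVX. OVX+RJ 1 stood slightly apart, with a mean Pearson correlation of 0.983 with the other libraries across genes, against 0.986 or 0.987 for each of the others, so the difference of Drd1 is given with and without it. The tissue label was checked against markers: the summed level of 5 markers of CA1 pyramidal cells was between 485 and 564 CPM (counts scaled to a library total of 1000000) in OVX+RJ and between 491 and 550 CPM in OVX, and that of 9 dentate granule cell markers was between 486 and 737 CPM in OVX+RJ and between 565 and 769 CPM in OVX. The cell bodies that make monoamines were close to absent: 6 of their defining genes (Th, Dbh, Slc6a2, Slc6a3, Slc6a4 and Tph2) summed to between 2.21 and 2.44 CPM in OVX+RJ and between 2.06 and 2.51 CPM in OVX.

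The question put to these genes was whether their hippocampal RNA differs with royal jelly in the diet after ovariectomy. No member was past 0.05 after Benjamini-Hochberg adjustment over all 18629 genes (edgeR, quasi-likelihood test), and the share of all genes called was 0%. Their adjusted p values lay between 0.986 and 0.996. At an unadjusted p under 0.05 there was 1 member, Drd1, against 754 of all genes, or 4.05%. DESeq2 called 0 members, where it called 0.0537% of all genes as higher and 0.0107% as lower in OVX+RJ, and limma-voom called 0. In both, Drd1 was again the one member at an unadjusted p under 0.05. The log2 fold change, OVX+RJ over OVX and so positive where OVX+RJ is higher, was negative at 7 of 9 members, where 50.4% of all genes tested were negative, and the median was -0.052 over the members and -0.0015 over all genes. Without OVX 2 only 4 of 9 members were negative and the median was 0.011, and without OVX+RJ 2 there were 5 of 9, with a median of -0.068. An exact permutation test of 3 against 3 libraries cannot give a two-sided p under 0.1.

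**Figure D1:**
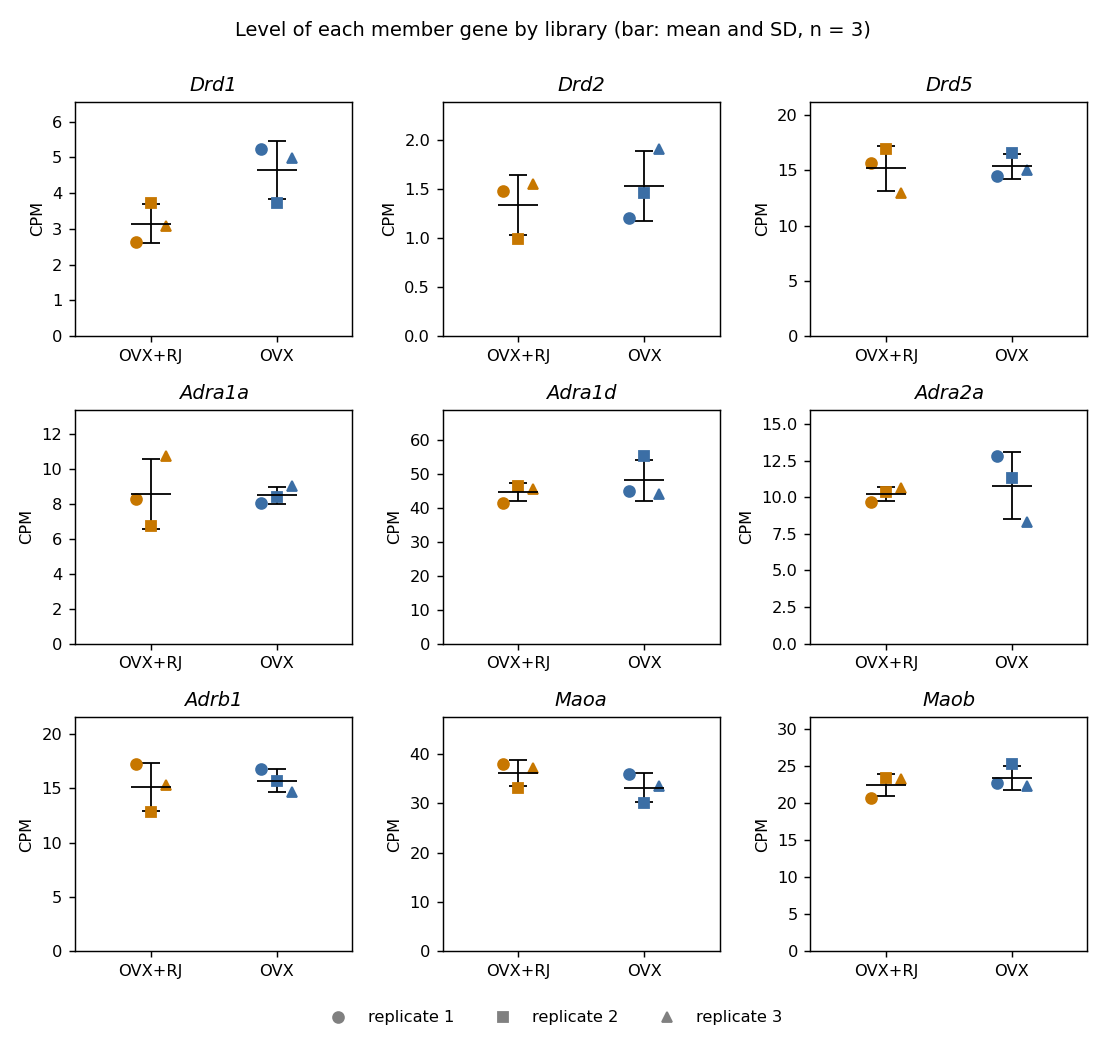
Level of each of the 9 genes in CPM (vertical axes, from 0) in the 3 OVX+RJ libraries on the left and the 3 OVX libraries on the right of each panel. Symbols mark the replicate number, for which the labels give no pairing, and bars give the mean and SD. The groups overlap in 8 panels, and in the Drd1 panel the highest OVX+RJ library (3.709 CPM) and the lowest OVX library (3.714 CPM) lie almost level.

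The members differed widely in level, and these levels are compared per kilobase of annotated exon because longer transcripts give more counts. Adra1d was highest, at 24.4 CPM per kb on average over the 6 libraries and between 21.8 and 29.0 among them. This gene also has the shortest annotated exon length of the members, 1899 bases with 562 codons. Those lengths are from GRCm38, not the GRCm39 build of the counts, and how far the gap depends on them was not tested. In CPM alone Adra1d averaged 46.3, against 34.7 for Maoa. Maob followed at 9.50 CPM per kb (8.60 to 10.5) and Maoa at 8.32 (7.22 to 9.12). The ranges of these oxidase genes overlapped each other, and both lay below that of Adra1d. Adrb1, at 5.22 CPM per kb (4.34 to 5.84), and Drd5, at 4.85 (4.12 to 5.38), also overlapped and stood below the oxidases. Adra2a had 2.18 CPM per kb (1.72 to 2.65) and did not overlap with Drd5. Adra1a had 1.24 CPM per kb (0.982 to 1.57), Drd1 had 1.09 (0.734 to 1.47) and Drd2 had 0.563 (0.389 to 0.752). In that lower part of the order Adra1a overlapped with Drd1, and Drd1 with Drd2. Adra1a has several annotated transcripts, and divided by its longest one in place of all its exons its level was 1.99 CPM per kb (1.57 to 2.50), which overlapped with Adra2a. Among the dopamine receptor genes measured, Drd5 thus had the highest level per length, and the order of these genes in each diet group can be read in the plot of levels per length.

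**Figure D2:**
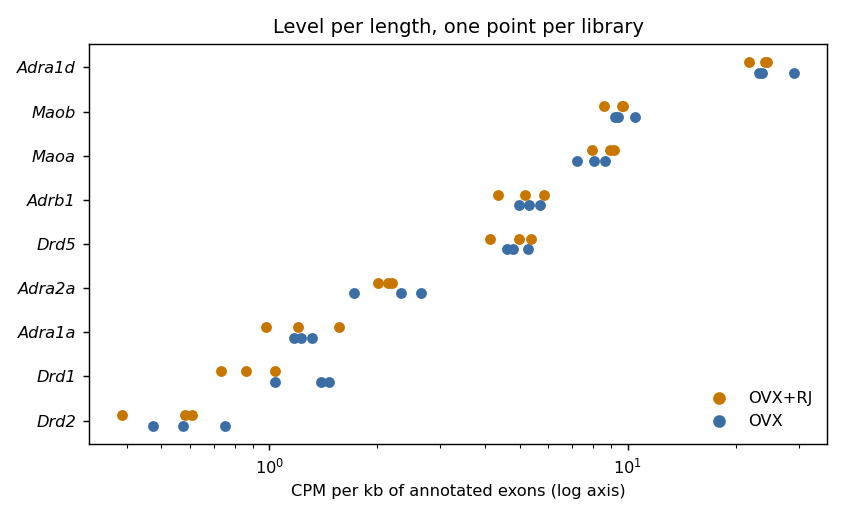
CPM per kilobase of annotated exons (horizontal log axis) for the 9 genes (rows, sorted by their mean), with one point per library, OVX+RJ above OVX in each row. Adra1d, at 21.8 to 29.0, lies apart from the rest, and Drd2, at 0.389 to 0.752, is lowest.

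Drd1 (GeneID 13488) encodes the D1 dopamine receptor, which couples to stimulatory G proteins and which dentate granule neurons are known to carry in the mouse. It had 2.62, 3.71 and 3.08 CPM in OVX+RJ 1, 2 and 3, against 5.24, 3.71 and 4.98 CPM in OVX 1, 2 and 3. All 3 OVX+RJ libraries were below all 3 OVX libraries, but OVX+RJ 2 and OVX 2 were apart by only 3.709 against 3.714 CPM. Drd1 averaged 3.14 ± 0.545 CPM in the OVX+RJ libraries and 4.65 ± 0.818 CPM in the OVX libraries (SD, n = 3 each). Its log2 fold change was -0.55 (SE 0.21, 95% interval -1.01 to -0.097), a ratio of 0.682 with an interval of 0.498 to 0.935. The unadjusted p of edgeR's quasi-likelihood test was 0.0217 and the adjusted p 0.986, so the difference did not pass. The exact permutation p was 0.1, the smallest that the design allows. Of all genes tested, 5.95% had OVX+RJ values wholly below the OVX values, 1.91% were negative at an unadjusted p under 0.05, and 3.00% had a log2 fold change at or below that of Drd1.

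The counts behind Drd1 were 101, 146 and 111 in OVX+RJ and 182, 216 and 203 in OVX. Exact 95% Poisson intervals, which cover counting error only, were 2.14 to 3.19 CPM for OVX+RJ 1 and 4.51 to 6.06 CPM for OVX 1, the lowest and the highest library. For OVX+RJ 2 and OVX 2 they were 3.13 to 4.36 and 3.23 to 4.24 CPM and so covered nearly the same range. The coefficient of variation between libraries was 17.4% in OVX+RJ and 17.6% in OVX, against 7.91% from counting alone at the mean count, so the libraries varied more than counting error alone gives. With OVX+RJ 1 left out the log2 fold change was -0.45 (unadjusted p = 0.0594 in edgeR's test), with OVX 1 left out -0.46 (0.0778) and with OVX 3 left out -0.49 (0.0709). Without OVX+RJ 2, OVX+RJ 3 and OVX 2 in turn it was -0.68, -0.53 and -0.69, with unadjusted p values of 0.0128, 0.0498 and 0.00978 in the same test.

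Markers of several cell types are given beside Drd1. None of them passed the adjusted threshold in edgeR's test, as no gene did. All 9 dentate granule cell markers were below 0 in log2 fold change (median -0.18), against 50.4% of all genes. Of the 9, 3 had an unadjusted p under 0.05 in edgeR's test, where 1.91% of all genes were lower at that level. The summed level of these markers was 578, 737 and 486 CPM in OVX+RJ 1, 2 and 3 and 709, 565 and 769 CPM in OVX 1, 2 and 3, and so overlapped. OVX+RJ 2, the OVX+RJ library with the most Drd1, had the highest sum of its group, and OVX 2, the OVX library with the least Drd1, had the lowest of its group, but OVX+RJ 3, not OVX+RJ 1, had the lowest sum of all. Per 1000 CPM of these markers Drd1 stood at 4.54, 5.03 and 6.32 in OVX+RJ and at 7.40, 6.57 and 6.48 in OVX. These groups did not overlap, though only by 6.32 against 6.48 (exact permutation p = 0.1, the smallest that the design allows). In an edgeR fit with the mean of these markers as a covariate, added after seeing the data, the log2 fold change of Drd1 was -0.38 with an unadjusted p of 0.126. Of 7 markers of the striatum, a neighbouring region very rich in D1 and D2 receptors, 5 were negative, with a median of -0.060, and their sum was between 152 and 177 CPM in OVX+RJ and between 166 and 177 CPM in OVX. Among these Adora2a, the adenosine receptor gene of striatal neurons, named after its values were seen, had 1.66, 0.965 and 1.14 CPM in OVX+RJ against 1.30, 1.15 and 1.03 CPM in OVX. The sum of 6 endothelial markers was 168 to 188 CPM in OVX+RJ and 209 to 223 CPM in OVX, without overlap. That of 6 pericyte and smooth muscle markers was 154 to 163 CPM in OVX+RJ and 172 to 181 CPM in OVX, also without overlap. OVX 2, with the least Drd1 of the OVX libraries, had the highest endothelial sum. OVX+RJ 2, with the most Drd1 of its group, had the highest endothelial sum of the OVX+RJ libraries (187.7 CPM, against 186.9 CPM in OVX+RJ 1). Of 6 choroid plexus markers 5 could be tested and all 5 were positive in log2 fold change (median 1.29). Of these 2 had an unadjusted p under 0.05 in edgeR's test, where 2.14% of all genes were higher at that level. The summed level of the 6 choroid plexus markers was 25.3, 44.5 and 52.9 CPM in OVX+RJ 1, 2 and 3 and 24.7, 34.9 and 30.0 CPM in OVX 1, 2 and 3, and so overlapped. The part of these cell types in the difference of Drd1 was not tested beyond the dentate covariate, and in bulk tissue fewer cells of a type cannot be told apart from less RNA per cell.

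**Figure D3:**
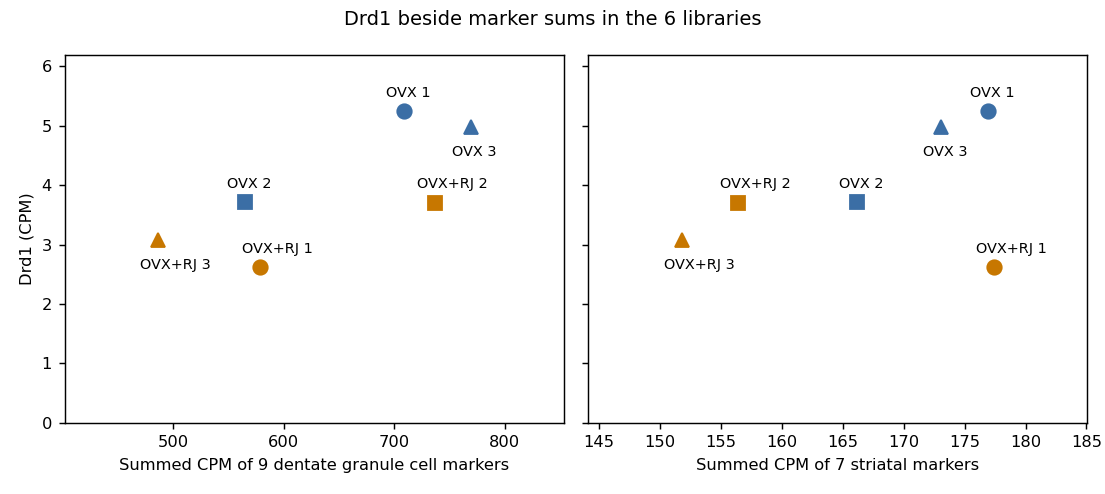
Drd1 in CPM (vertical axis, from 0) against the summed CPM of 9 dentate granule cell markers (left) and 7 striatal markers (right; horizontal axes do not start at 0), one point per library, OVX+RJ in orange and OVX in blue. OVX+RJ 1 has the least Drd1 (2.62 CPM) and a striatal sum as high as that of OVX 1 (both 177 CPM).

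Drd5 (GeneID 13492), the other D1-like receptor, served as a comparison within the family because it uses the same class of G protein. It had 15.6, 17.0 and 13.0 CPM in OVX+RJ 1, 2 and 3, against 14.5, 16.6 and 15.0 CPM in OVX 1, 2 and 3. The groups overlapped fully, with OVX+RJ libraries both highest and lowest. Its log2 fold change was -0.0063 (SE 0.12, 95% interval -0.28 to 0.27; edgeR adjusted p = 0.996), and the interval as a ratio ran from 0.823 to 1.20. The ratio of Drd1 to Drd5 counts within a library, which does not depend on library scaling, was 0.168, 0.219 and 0.237 in OVX+RJ and 0.363, 0.224 and 0.331 in OVX. OVX 2 fell among the OVX+RJ libraries in this ratio, and the exact permutation p was 0.2 (0.833 adjusted over 5 ratios of members). An antisense gene annotated across Drd5, Gm26560, had 32, 64 and 44 counts in OVX+RJ and 51, 132 and 42 in OVX, against 468 or more for Drd5. The kit was directional. Whether the counting used strand is not given in the sources used here, and without it reads of both genes cannot be told apart.

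The upstream sequences of the D1-like pair and of Maoa are shown because Drd1 and Maoa had the lowest and the highest fold change of the members and Drd5 is the close relative of Drd1 with almost none. They come from RefSeq on GRCm38.p6, not the GRCm39 build of the counts, run 5′ to 3′ on the gene's strand and stop before the first annotated transcribed base. Capitals mark the GC box GGGCGG or its complement CCGCCC.
Drd1 (chr13:54055706-54055908, minus strand): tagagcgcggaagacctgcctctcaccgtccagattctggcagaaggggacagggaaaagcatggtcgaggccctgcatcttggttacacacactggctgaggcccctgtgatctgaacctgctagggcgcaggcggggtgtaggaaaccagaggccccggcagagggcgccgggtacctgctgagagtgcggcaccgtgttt
Drd5 (chr5:38319259-38319366, plus strand): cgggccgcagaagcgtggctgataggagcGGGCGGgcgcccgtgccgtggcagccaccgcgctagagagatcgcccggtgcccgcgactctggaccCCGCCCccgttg
Maoa (chrX:16619448-16619697, plus strand): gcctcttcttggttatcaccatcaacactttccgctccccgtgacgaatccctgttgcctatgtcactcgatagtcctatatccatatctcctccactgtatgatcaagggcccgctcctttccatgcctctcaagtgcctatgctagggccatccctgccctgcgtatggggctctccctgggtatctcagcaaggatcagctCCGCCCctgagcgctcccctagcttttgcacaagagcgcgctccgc
The printed stretch of Drd1 held no GC box, that of Drd5 held 2 and that of Maoa held 1, and the window of a second Drd1 start site, not printed, held 1. RefSeq windows of 250 bases upstream were available for 6 of the 9 members, 7 windows in all, with a G and C content of 56.8% to 74.0% against a median of 52.4% over 32851 windows. Searched on both strands, GGGCGG was in 6 of these 7 windows and in 32.7% of all windows. TATAAA was in 1, that of Adra2a, and in 12.4% of all. Neither TGACGTCA, the cyclic AMP response element (1.55% of all windows), nor AGGTCA, the repeated core of the estrogen response element (14.0%), was found in a member's window. None of these motifs can hold another, each was counted on its own, and no match says only that these letters are not in these windows.

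Drd2 (GeneID 13489), the D2 receptor, which inhibits adenylyl cyclase and which mossy cells of the dentate hilus are known to express in the mouse, was the lowest member. It had 1.48, 0.991 and 1.55 CPM in OVX+RJ, against 1.21, 1.46 and 1.91 CPM in OVX. These values rest on 57, 39 and 56 counts in OVX+RJ and 42, 85 and 78 in OVX. The groups overlapped, and the Poisson interval of a single library reached from 0.704 to 1.35 CPM in OVX+RJ 2 and from 1.51 to 2.39 CPM in OVX 3. The log2 fold change was -0.18 (SE 0.30, edgeR adjusted p = 0.986), with an interval from -0.83 to 0.47, so that neither a ratio of 0.562 nor one of 1.38 lies outside it at this depth. The ratio of Drd1 to Drd2 counts was 1.77, 3.74 and 1.98 in OVX+RJ and 4.33, 2.54 and 2.60 in OVX (exact permutation p = 0.5). The summed level of 3 mossy cell markers was 26.5 to 31.1 CPM in OVX+RJ and 19.1 to 31.7 CPM in OVX, and its part in the values of Drd2 was not tested.

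The alpha-1 receptor genes differed in level but not detectably between diets. Adra1d (GeneID 11550) had 41.5, 46.5 and 45.7 CPM in OVX+RJ, against 44.9, 55.2 and 44.1 CPM in OVX. OVX 2 alone lay above the others, and the remaining 5 libraries overlapped. The fitted log2 fold change was -0.10 (SE 0.093, edgeR adjusted p = 0.986), and without OVX 2 it was 0.013. Adra1a (GeneID 11549) had 8.26, 6.73 and 10.7 CPM in OVX+RJ, against 8.04, 8.39 and 9.03 CPM in OVX. The OVX+RJ libraries of Adra1a were both the lowest and the highest of the 6, with a coefficient of variation of 23.5% in OVX+RJ and 5.94% in OVX. Its log2 fold change was 0.024 (SE 0.17, edgeR adjusted p = 0.992). Within a library Adra1d had between 4.26 and 6.90 times the counts of Adra1a in OVX+RJ and between 4.89 and 6.57 times in OVX. An antisense gene annotated across Adra1d, Gm14285, had at most 30 counts in an OVX+RJ library and 47 in an OVX library, against 1559 or more for Adra1d.

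Adra2a (GeneID 11551) encodes the alpha-2A receptor, which also acts as an autoreceptor on noradrenergic axons. It had 9.69, 10.4 and 10.6 CPM in OVX+RJ, against 12.8, 11.3 and 8.32 CPM in OVX. The OVX+RJ libraries lay close together between the OVX libraries, at a coefficient of variation of 4.77% in OVX+RJ and 21.1% in OVX. The log2 fold change was -0.065 (SE 0.16, edgeR adjusted p = 0.987), and leaving out single libraries moved it between -0.22 and 0.064. Adrb1 (GeneID 11554), the beta-1 receptor gene, had 17.2, 12.8 and 15.3 CPM in OVX+RJ, against 16.8, 15.7 and 14.6 CPM in OVX. Here the OVX+RJ libraries reached above and below all OVX libraries. The log2 fold change of Adrb1 was -0.042 (SE 0.13, 95% interval -0.33 to 0.24; edgeR adjusted p = 0.988). Adra2a and Adrb1 lie on the same chromosome, 19, and the ratio of their counts was 0.563, 0.810 and 0.697 in OVX+RJ and 0.762, 0.720 and 0.569 in OVX. With Drd1 and Drd5 they share a coding sequence in 1 exon, whereas the annotation gives 2 coding exons for Adra1a and Adra1d and 7 for Drd2.

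Maoa and Maob are neighbours on chromosome X, on opposite strands, with 15 coding exons each and 526 and 520 codons. MAO-A prefers serotonin and noradrenaline, and MAO-B is the main form in astrocytes. Maoa (GeneID 17161) had 38.0, 33.2 and 37.2 CPM in OVX+RJ, against 36.0, 30.1 and 33.6 CPM in OVX. OVX+RJ values were on average higher but overlapped with OVX 1 and OVX 3. Maoa averaged 36.2 ± 2.59 CPM in the OVX+RJ libraries and 33.2 ± 2.96 CPM in the OVX libraries (SD, n = 3 each). The fitted log2 difference was 0.14 (SE 0.092, 95% interval -0.067 to 0.34; edgeR unadjusted p = 0.168, adjusted p = 0.986). This was the highest log2 fold change of the 9 members, and it was positive whichever library was left out, between 0.071 and 0.20. Maob (GeneID 109731) had 20.7, 23.4 and 23.2 CPM in OVX+RJ, against 22.7, 25.3 and 22.2 CPM in OVX. Its groups overlapped, with a log2 fold change of -0.052 (SE 0.093, edgeR adjusted p = 0.986) and an interval of 0.837 to 1.11 as a ratio, the narrowest of the 9 beside those of Maoa and Adra1d. The ratio of Maoa to Maob counts was 1.83, 1.42 and 1.61 in OVX+RJ and 1.59, 1.19 and 1.51 in OVX, overlapping groups with an exact permutation p of 0.4. Astrocytes carry Maob, and 7 astrocyte markers summed to between 4550 and 4800 CPM in OVX+RJ and between 4460 and 4880 CPM in OVX.

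**Figure D4:**
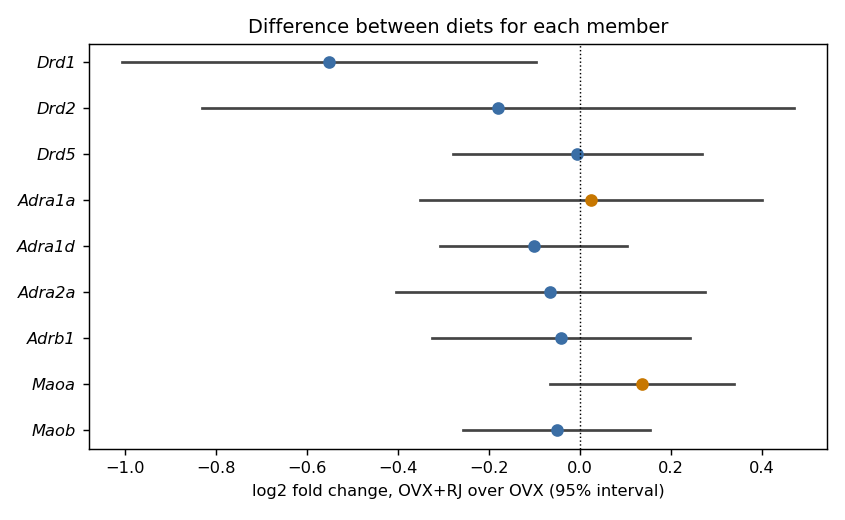
Log2 fold change of OVX+RJ over OVX (horizontal axis) with its 95% interval for the 9 genes (rows), points in orange above 0 and in blue below 0. The interval of Drd1 (-1.01 to -0.097) does not reach 0, and the intervals of the other 8 genes do; none passed the adjusted threshold.

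The wider catecholamine system was described by 6 lists with 73 genes, of which 64 could be tested. None of these 64 passed the adjusted threshold in edgeR's test and none had an unadjusted p under 0.05, where 4.05% of all genes did. The groups did not overlap at 7 of them, 4 higher and 3 lower in OVX+RJ, against 10.5% of all genes (4.53% higher, 5.95% lower). The median log2 fold change of the 64 was -0.020.

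Of the other 7 receptor genes 4 could be tested, 3 with positive and 1 with a negative log2 fold change. Adra2c, the alpha-2C receptor gene, had 23.5, 17.8 and 14.9 CPM in OVX+RJ, against 15.1, 18.7 and 16.7 CPM in OVX (log2 fold change 0.17, SE 0.16). Adra1b had 2.86, 2.03 and 2.74 CPM in OVX+RJ, against 2.27, 1.96 and 1.96 CPM in OVX (0.32, SE 0.23). Both genes overlapped between groups. Adrb3 stood at 0.018 (SE 0.43), at or under 1.01 CPM in every library. Drd3, Drd4 and Adra2b had too few counts to test. Among the 13437 features that fell short in this way, the groups did not overlap at 4.90%, and Drd3 was one of these.

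The list of catecholamine synthesis holds the enzymes that form dopamine and noradrenaline and those that supply the cofactor tetrahydrobiopterin. Of 7 tested, 4 were positive and 3 negative (median 0.081). Qdpr, which regenerates the cofactor, had 118, 145 and 143 CPM in OVX+RJ, against 110, 164 and 142 CPM in OVX. Spr and Pts, which make it, had log2 fold changes of -0.074 (SE 0.095) and -0.21 (SE 0.11), and Ddc, the decarboxylase that forms dopamine, 0.11 (SE 0.17). None of these 4 passed an unadjusted p of 0.05 in edgeR's test, and the lowest was 0.0879, for Pts. Of the transport genes 4 of 9 could be tested: Slc29a4, a plasma membrane monoamine transporter, had 15.0, 20.5 and 15.0 CPM in OVX+RJ, against 19.6, 16.9 and 18.7 CPM in OVX. Slc18a2, the vesicular monoamine transporter, had 5.64, 5.71 and 6.04 CPM in OVX+RJ, against 5.19, 4.95 and 5.69 CPM in OVX (log2 fold change 0.15, SE 0.15). Slc22a3 and Slc6a3 stayed under 1 CPM in every library.

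Beside the monoamine oxidases, 6 genes of breakdown were measured, and the log2 fold change of all 6 was below 0 (median -0.068, range -0.25 to -0.027), against 50.4% of all genes. All 6 were also negative with DESeq2 size factors, with library totals alone and in DESeq2, but none passed an unadjusted p of 0.05 in edgeR's test and each overlapped between groups. Aldh2, which oxidises the aldehydes that monoamine oxidases form, had 63.7, 63.3 and 68.7 CPM in OVX+RJ, against 68.9, 75.2 and 67.3 CPM in OVX (-0.10, SE 0.072). Aldh1a1, with the same role, stood at -0.044 (SE 0.092) and Akr1a1, an aldehyde reductase, at -0.027 (SE 0.063).

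Downstream of the receptors, the list of G proteins, adenylyl cyclases and protein kinase A subunits had 11 positive and 15 negative genes of 26, none outside -0.094 to 0.13. Gnas, the stimulatory G protein that D1-like and beta receptors use, had 1051, 1000.3 and 1050.0 CPM in OVX+RJ, against 1035, 1132 and 995.5 CPM in OVX (log2 fold change -0.017, SE 0.059). Gnao1, an inhibitory G protein, stood at -0.0066 (SE 0.055), Prkar1a, a regulatory subunit of protein kinase A, at 0.039 (SE 0.047), and Adcy1, a calcium-stimulated adenylyl cyclase, at -0.094 (SE 0.091). The groups of Prkar1a did not overlap in CPM, though they did on the TMM-scaled values, at 887, 875 and 882 CPM in OVX+RJ against 871, 871 and 852 CPM in OVX. Of 17 genes of desensitisation and of G protein regulation 7 were positive and 10 negative, or 5 and 12 with libraries scaled by their totals alone. Grk2, the kinase that phosphorylates active beta receptors, had 149, 149 and 152 CPM in OVX+RJ, against 160, 162 and 155 CPM in OVX, groups that did not overlap (-0.071, SE 0.056, edgeR unadjusted p = 0.234). Arrb1, a beta-arrestin, stood at -0.038 (SE 0.057), Grk3 at 0.074 (SE 0.077) and Rgs4, which shortens Gq and Gi signals, at 0.15 (SE 0.075).

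**Figure D5:**
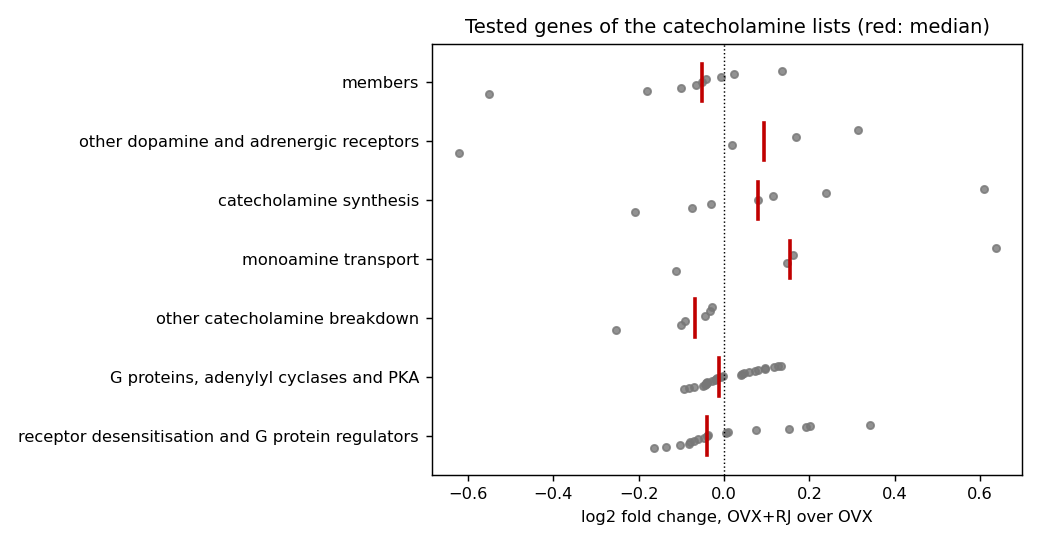
Log2 fold change of OVX+RJ over OVX (horizontal axis) for every tested gene of the 9 members and of 6 lists of the catecholamine system (rows), one grey point per gene, with the list median as a red line. Medians run from -0.068 (other breakdown) to 0.16 (transport, 4 genes), and no point passed the adjusted threshold.

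The gene whose pattern over the 6 libraries was most like that of a member was taken from 13383 named genes with a mean of at least 1 CPM, by the root mean square difference of centred log2 CPM. For Drd1 this was Clic5, a chloride channel family gene, at 0.073 log2 units, where Drd1 itself had an SD of 0.37. For Drd2 it was Eda (0.098), for Drd5 H2-D1 (0.029), for Adra1a Mad1l1 (0.059), for Adra1d Tyw5 (0.029) and for Adra2a Sdk1 (0.043). For Adrb1 it was Zfp335 (0.034), for Maoa Faxc (0.026) and for Maob Stip1 (0.018). These distances are a description over 6 libraries, and each is the smallest of 13383.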

How the data were processed

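Hippocampal poly(A) RNA of 6 mice was sequenced. Per the submitters' processing notes the tools were HISAT2 2.2.1, StringTie 2.2.1, fastp 0.23.4 and bcl2fastq 2.19, with build GRCm39 and no roles named. How reads were counted, by strand or not, and what was done with multiply aligned reads is not given in the sources used here. The deposited table holds expected counts per gene symbol, unscaled; 51 rows had fractional values and counts were rounded for the tests. A row without a gene name was left out (at most 1.15e-05% of counts).

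CPM were computed over all named rows. Groups were compared in R 4.3.3 with edgeR 4.0.16 (filterByExpr, TMM factors 0.978 to 1.01, glmQLFit and glmQLFTest, Benjamini-Hochberg over 18629 genes, threshold 0.05). Standard errors and 95% intervals derive from the quasi-likelihood F statistic. DESeq2 1.42.0 and limma 3.58.1 (voom) were alternatives. The same fit was also run on counts simulated from its own means and dispersions. Exon lengths and neighbours came from GENCODE M21 (GRCm38), matched by symbol for all 9 members. P-values measure the spread between the libraries labelled biological replicates.

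The members and the lists were chosen with earlier results of these data known. Every member is named; of each pathway list the 4 genes with the highest mean CPM and any gene with an unadjusted p under 0.05, and for each member the gene most like it. Adora2a and the low-count receptors fall outside that rule and were named after their values were seen. Some genes that the rule names are not reported here.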

Additional observations from a re-analysis of the deposited data

How the results depend on the processing

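Over all genes the count called was 0 in edgeR's test (754 at an unadjusted p under 0.05), 12 in DESeq2 (10 higher, 2 lower), 3 with robust empirical Bayes, 1 with the replicate number as a block, 0 in limma-voom and between 0 and 8 with single libraries left out (8 without OVX+RJ 2, 2 without OVX 3, 1 without OVX+RJ 1 and 1 without OVX 2); the cause was not tested. No member was called under any of the 15 alternatives, which also covered other size factors and filters on low counts, and the members' median log2 fold change ran from -0.088 to 0.011 with single libraries left out (0.011 without OVX 2) and was -0.14 with the dentate marker covariate, which was chosen after seeing the data. Drd1 was negative under all 15 (-0.69 to -0.38) and Maoa positive under all 15 (0.071 to 0.20). Signs turned for Adra1a in limma-voom (-0.0079) and, with the dentate marker covariate, for Adra1a (-0.16) and Drd5 (0.047). Leaving out 1 library at a time gave -0.32 to 0.015 for Drd2, -0.085 to 0.10 for Drd5, -0.16 to 0.18 for Adra1a, -0.15 to 0.013 for Adra1d, -0.22 to 0.064 for Adra2a, -0.16 to 0.070 for Adrb1 and -0.081 to 0.011 for Maob. The labels give no pairing of same-numbered libraries. Their deviations from the group means had r of 0.046, -0.0024 and 0.0031 across genes, against -0.044 to 0.045 for other pairs. With 3 libraries per group these values cannot exclude a shared batch or day. In the fit with the replicate block Drd1 was -0.55 (unadjusted p = 0.0391, edgeR). Depth limits Drd2 most, whose counts of 39 to 85 alone give a coefficient of variation of 13.0%.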

Other observations

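Drd3, the D3 receptor gene, was under the filter on low counts and is named after its values were seen. It had 0, 0 and 3 counts in OVX+RJ, against 4, 10 and 7 counts in OVX, or 3 against 21 in all. The groups did not overlap (0, 0 and 0.0831 CPM in OVX+RJ, against 0.115, 0.172 and 0.172 CPM in OVX), as at 4.90% of the 13437 features under the filter. With every feature with a count tested, its unadjusted p in edgeR's test was 0.0766 and its adjusted p 0.869. Drd4 had 8, 2 and 6 counts in OVX+RJ against 2, 2 and 4 in OVX, and Adra2b had 2, 0 and 4 in OVX+RJ against 0, 17 and 2 in OVX, both overlapping.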
